A study of Sus scrofa with 9 samples.

Results

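The genes described are matricellular and elastic fiber glycoproteins of the extracellular matrix (ECM), chosen by symbol from the deposited expression table. Of the 10 symbols TNC, TNN, POSTN, SPARC, FN1, FBN1, FBN2, ELN, FBLN1 and THBS2, 9 were found among the 34580 genes and transcripts listed, and THBS2 was not analysed here. All 9 were among the 19618 genes that passed the filter on low values. Total RNA of the mandibular deciduous molar (Dm3) germ of untreated miniature pig fetuses was sequenced at embryonic days 40, 50 and 60, called E40, E50 and E60. These are the cap stage, the early bell stage and the late bell stage in that order, and each is represented by 3 libraries. The stage is the only difference between groups that the labels give, and whether the libraries of a stage came from separate fetuses or litters is not stated. The p-values therefore measure the spread between these libraries, which may be partly technical.

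Elastic fibers are built on microfibrils of fibrillin (FBN1 and FBN2), onto which tropoelastin, the product of ELN, is deposited and crosslinked, with fibulins such as fibulin-1 (FBLN1) bound to the growing fiber. Fibronectin (FN1) is assembled by cells through integrins into fibrils on which other matrix proteins are laid down. Matricellular proteins, here tenascin-C (TNC), tenascin-N or tenascin-W (TNN), periostin (POSTN) and SPARC (osteonectin), are secreted into the matrix and tune adhesion, collagen assembly and mineralization more than they bear load. SPARC binds collagen and calcium and is abundant in dentin and bone, periostin is known from the periodontal ligament and periosteum, and tenascin-C from mesenchyme next to budding epithelia.

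The libraries fell into 2 sets. Whole reads recovered from the steps of the FPKM values (fragments scaled to gene length and to library size) came to between 14362235 and 16674750 in the 3 E50 libraries and E60 library 1, and to between 938527 and 1760356 in the 3 E40 libraries and E60 libraries 2 and 3. A single locus, LOC102158401, took between 22.3% and 40.6% of the reads in the 5 shallow libraries and at most 0.576% in the 4 deep ones, which lowers the FPKM of every other gene in the shallow set. For this reason each member is also given on a second scale, in which the FPKM values of a library were divided by its median ratio to the geometric mean of all libraries (scaled FPKM). Over all genes tested, the median of the log2 fold changes between E40 and E50 was 0.55 on the deposited scale and -0.09 on the scaled one, and -0.64 and 0.08 for E50 to E60. E40 and E50 lie wholly in different sets, so that stage and set cannot be told apart between them. The same holds for E50 and E60 once E60 library 1 is left out. E60 lies in both sets, and a fit with a term for the set compares E60 library 1 with E50 and E60 libraries 2 and 3 with E40. E60 library 1 resembled E50 in depth but carried the marker of its stage: AMBN, the enamel matrix protein ameloblastin, had 10410, 2181 and 5371 FPKM in E60 libraries 1, 2 and 3 and at most 6.48 FPKM in any other library.

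**Figure D1:**
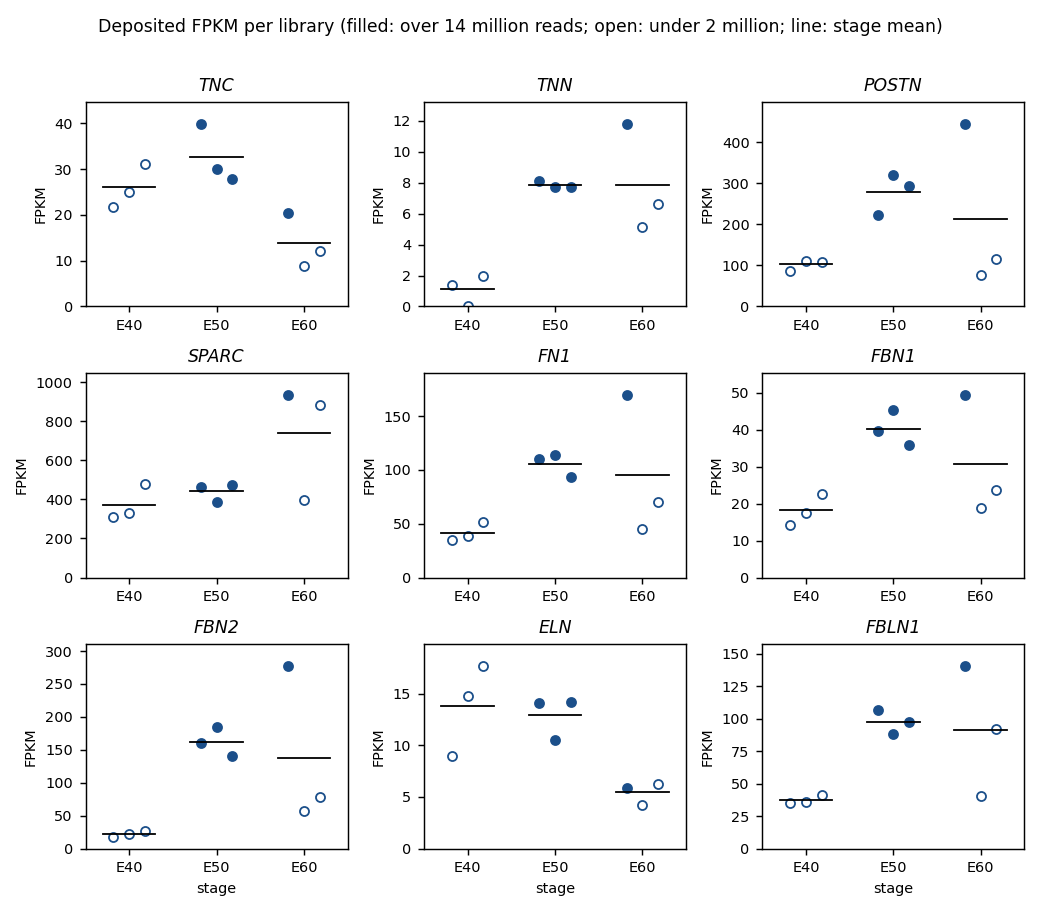
Deposited FPKM of the 9 members (vertical axes, each from 0) in the 3 libraries of each stage, with replicate numbers from left to right. Filled points are the 4 deep libraries, open points the 5 shallow ones, and lines the stage means. The filled E60 point (library 1) is the highest of all 9 libraries for POSTN, SPARC, FN1, FBN1, FBN2, FBLN1 and TNN.

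**Figure D2:**
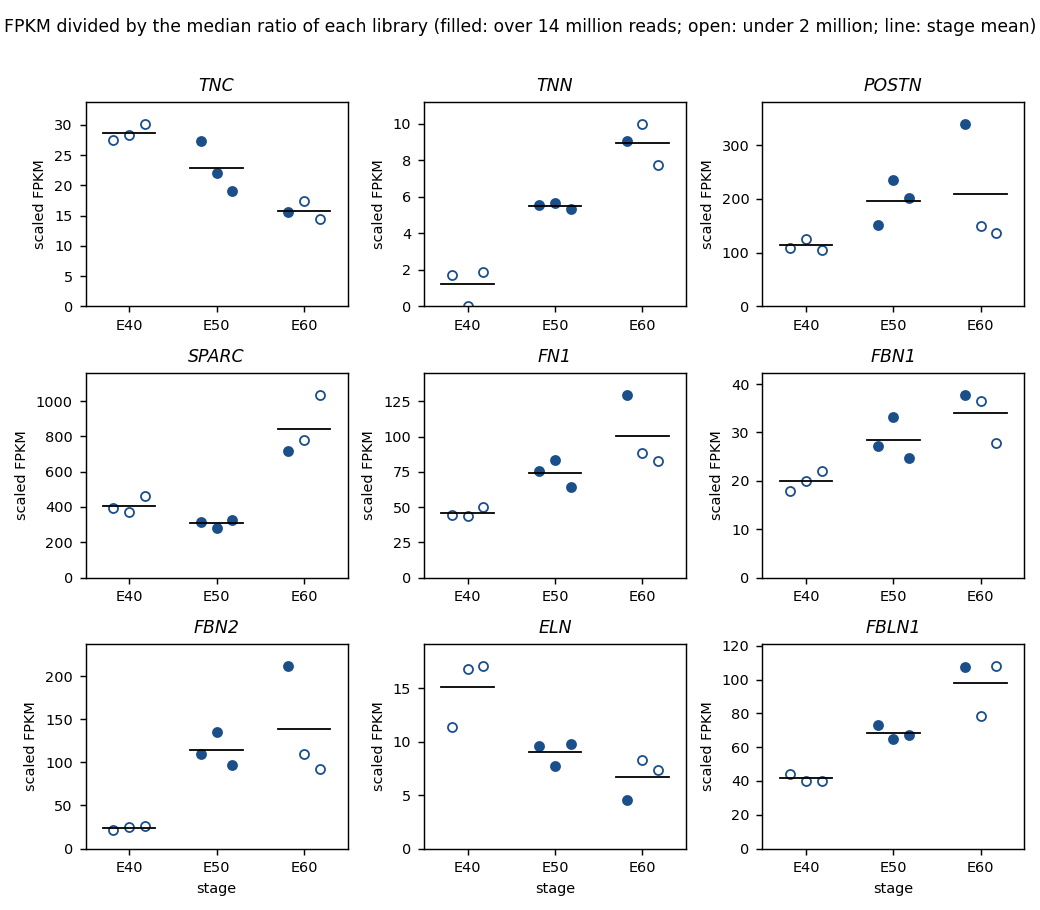
The same values after division by the median ratio of each library (scaled FPKM, each axis from 0), with the same symbols. On this scale the E40 and E60 points of all 9 members are separate, with 7 higher and 2 lower (TNC and ELN) at E60.

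Between E40 and E50, 5 of the 9 members rose and none fell on the deposited values. FBN2 rose most among those with more than a few reads, with a log2 fold change of 2.88, followed by FBLN1, FN1 and FBN1 at 1.38, 1.35 and 1.16, while TNN rose by 3.56 from a level near the limit of detection at E40. These calls are from limma on log2(FPKM + 0.1), with p-values adjusted by Benjamini-Hochberg over all genes tested. A call needed an adjusted p below 0.05 together with a change of 1 or more on the log2 scale. The same limits were passed upwards by 16.8% of all genes tested. The median log2 fold change was 1.35 for the members and 0.55 for all genes. With median-ratio scaling only FBN2 and TNN passed, against 12.2% of all genes upwards, and with a term for the set of libraries none did, against 0.255% of all genes. The fit with that term links E40 and E50 only through the E60 libraries, of which 1 is deep, so that it can hardly decide this comparison. Over the 8 libraries without E60 library 1 POSTN passed as well, 6 of 9 against 30.5% upwards. The count past the limits changed when single libraries were left out: it was 0 without E40 library 1, E50 library 2 or E50 library 3, 1 without E50 library 1, 2 without E40 library 2, E40 library 3 or E60 library 3, and 6 without E60 library 2. The log2 fold changes kept their direction in these fits. They were 2.72 to 3.03 for FBN2, 1.31 to 1.46 for FBLN1, 1.24 to 1.51 for FN1, 1.0 to 1.33 for FBN1 and 2.19 to 4.37 for TNN. The share of all genes in these fits is not given, so that these counts describe the members alone. The summed FPKM of dental mesenchyme markers (10 listed) was 1095 to 1644 at E40 and 3006 to 3395 at E50 (1382 to 1590 and 2210 to 2340 scaled). VIM made up most of this sum, with 875.8 to 1290 FPKM at E40 and 2397 to 2753 FPKM at E50. By limma 4 of the 10 were higher and 0 lower, and TWIST1 had 50.4, 63.0 and 86.3 FPKM at E40 and 46.6, 38.3 and 57.7 FPKM at E50. The part of these markers in the rise of the members was not tested. The E40 and E50 libraries did not overlap for 6 members on the deposited values and for 9 on the scaled ones, against 73.0% and 65.4% of all genes.

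From E50 to E60 no member passed these limits over all 9 libraries, where 0.0714% of all genes did in either direction. TNC and ELN had an unadjusted p under 0.05 by limma, and limma-voom on the recovered reads also gave 0 members past the limits with 2 at an unadjusted p under 0.05. The share of all genes at that unadjusted limit is not given, so that these counts cannot be weighed against it. Over the 8 libraries without E60 library 1, TNC, POSTN, FBN2 and ELN fell, against 39.1% of all genes. This fit sets deep E50 libraries against shallow E60 libraries, so that stage and set cannot be told apart in it. With median-ratio scaling of these 8 libraries TNC, POSTN, FBN2 and ELN were at -0.54, -0.46, -0.19 and -0.23, and none of them passed. E60 library 1 alone differed from the mean of E50 by -0.65, 0.69, 0.79 and -1.11 in that order, on the deposited log2 scale. With median-ratio scaling of all 9 libraries 1 member passed, SPARC, which rose, against 0.352% of all genes upwards. SPARC was also the 1 member that rose with scaling of the 8 libraries, where 25.4% of all genes did. TNC and ELN were the 2 members whose E50 and E60 libraries did not overlap on the deposited values, against 26.8% of all genes, and on the scaled values there were 4 (TNC lower, TNN, SPARC and FBLN1 higher), against 21.0%.

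From E40 to E60 no member passed over all 9 libraries either, where 1.8% of all genes did. By limma 5 members had an unadjusted p under 0.05, for which the share of all genes is again not given. With median-ratio scaling SPARC, FN1, FBN2 and FBLN1 rose, 4 of 9 against 2.05% of all genes upwards. Over the 8 libraries without E60 library 1, where this comparison lies within the shallow set, FBN2 rose and TNC fell, against 1.37% of all genes upwards and 4.68% downwards. Scaling of the same 8 libraries gave SPARC, FBN2 and FBLN1 as risen, against 2.51% of all genes, and so did scaling of all 9 with a term for the set, against 2.64%. On the scaled values the E40 and E60 libraries did not overlap for any of the 9 members, against 21.4% of all genes tested, and on the deposited values for 4 of 9, against 22.9%.

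**Figure D3:**
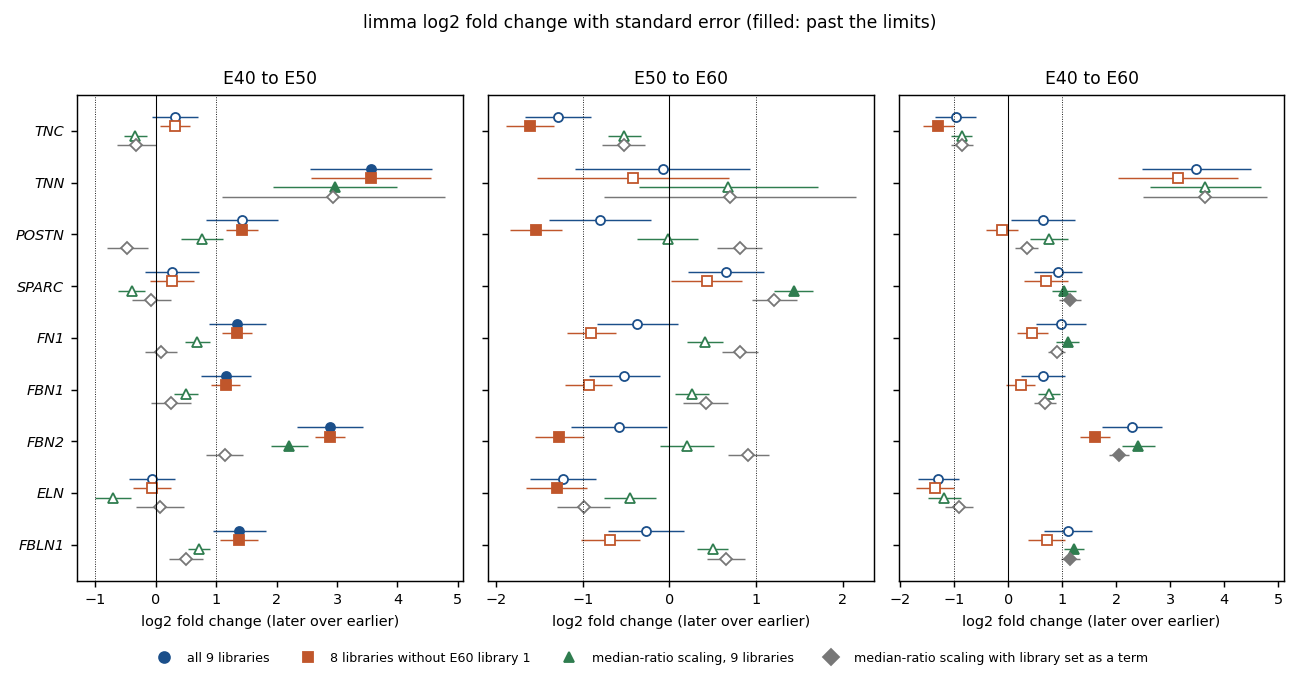
Log2 fold changes (horizontal axes, later over earlier stage) of the 9 members from limma in 4 fits, with standard errors as bars, for E40 to E50, E50 to E60 and E40 to E60. Filled symbols passed the limits, dotted lines mark a log2 fold change of 1 in either direction, and FBN2 is the member filled most often from E40 to E60.

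Fibrillin-2, a microfibril protein best known from embryonic tissues, had the widest range of the 4 elastic fiber genes among the members. FBN2 had 17.4, 21.8 and 27.2 FPKM in the E40 libraries and 160.9, 184 and 140.0 FPKM at E50. In E60 libraries 1, 2 and 3 it had 277.6, 56.5 and 78.7 FPKM. Every E50 and E60 library lay above every E40 library, and the E60 libraries lay on both sides of E50. All deep libraries lay above all shallow ones. Between E40 and E50 its log2 fold change came to 2.88 (standard error 0.55, limma adjusted p = 0.0124 after Benjamini-Hochberg), and 2.21 (adjusted p = 0.0105, same test) with median-ratio scaling. From E40 to E60 the values were 2.29 (adjusted p = 0.0805 over all 9 libraries) and 2.41 (adjusted p = 0.00516 with median-ratio scaling, limma, Benjamini-Hochberg). Within the shallow set the same comparison gave 1.61 (adjusted p = 0.0172 over the 8 libraries, limma) and 2.04 with scaling (adjusted p = 0.0012). FBN2 passed the limits in these last 3 fits. From E50 to E60 its direction depended on the libraries, at -1.27 with E60 library 1 left out (adjusted p = 0.00464, limma) and 0.79 for E60 library 1 against E50 (adjusted p = 1, limma with a term for the set). With median-ratio scaling the values were -0.19 over the 8 libraries and 0.2 over all 9.

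Fibrillin-1, the microfibril protein mutated in Marfan syndrome, covered a narrower range. FBN1 had 14.3, 17.6 and 22.7 FPKM at E40, 39.8, 45.3 and 35.8 FPKM at E50, and 49.5, 18.7 and 23.7 FPKM at E60. The E50 libraries lay above all E40 libraries, and E60 library 2 lay within the range of E40 with library 3 just above it. All deep libraries lay above all shallow ones. Between E40 and E50 the log2 fold change came to 1.16 (standard error 0.41, limma adjusted p = 0.0494 after Benjamini-Hochberg), and 0.5 with median-ratio scaling (adjusted p = 0.0755, same test), which did not pass. Between E40 and E60 it was 0.64 on the deposited scale and 0.76 on the scaled one (adjusted p = 0.412 and 0.0854, limma).

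Elastin, the core of the mature elastic fiber, had its lowest values at the late bell stage. ELN had 9.01, 14.8 and 17.7 FPKM at E40, 14.1, 10.5 and 14.2 FPKM at E50, and 5.89, 4.24 and 6.28 FPKM at E60. All E60 libraries, those of both sets, were below every E40 and E50 library. The log2 fold change from E50 to E60 was -1.23 (standard error 0.38) over all 9 libraries and -1.3 over the 8 (adjusted p = 0.164 and 0.0118, limma, Benjamini-Hochberg), so that the call rests on leaving out E60 library 1. For E40 to E60 it was -1.29 and -1.35 (adjusted p = 0.149 and 0.0597, limma), and -1.18 with median-ratio scaling (adjusted p = 0.077, limma), none of which passed. Relative to the median gene the E50 to E60 difference was smaller, at -0.46 with median-ratio scaling (adjusted p = 0.34, limma), with scaled values of 7.74 to 9.79 at E50 and 4.5 to 8.27 at E60 that overlapped. Few reads lay behind these values in the shallow libraries: 73 in the 3 E40 libraries and 26 in E60 libraries 2 and 3. The share of reads in those E60 libraries was 0.376 of that at E40 (95% exact interval 0.23 to 0.595, counting error only). In E60 library 1 the share was 0.459 of that at E50 (interval 0.383 to 0.547).

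Fibulin-1, which binds elastin, fibronectin and basement membrane proteins, had 35.1, 35.6 and 41.4 FPKM at E40, 106.7, 88.1 and 97.7 FPKM at E50, and 140.7, 40.2 and 91.9 FPKM at E60. On the scaled values of FBLN1 the stages followed each other without overlap, from 40.0 to 44.3 at E40, 64.8 to 73.1 at E50 and 78.4 to 108.1 at E60. Between E40 and E50 the log2 fold change came to 1.38 (standard error 0.44, limma adjusted p = 0.037 after Benjamini-Hochberg) and 0.72 with median-ratio scaling, under the fold limit (adjusted p = 0.0212, same test). From E40 to E60 it was 1.11 over all 9 libraries (adjusted p = 0.25, limma), 1.22 with median-ratio scaling (adjusted p = 0.00927, limma) and 1.14 with scaling of the 8 libraries (adjusted p = 0.0114, limma). FBLN1 thus rose from E40 to E60 on the scaled values, with and without E60 library 1.

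Fibronectin covered a range like that of fibulin-1. FN1 had 35.2, 38.6 and 51.6 FPKM at E40, 110.2, 113 and 93.7 FPKM at E50, and 169.8, 45.4 and 70.1 FPKM at E60. Each E50 library was above all E40 libraries, and E60 library 2 lay within the range of E40. All deep libraries lay above all shallow ones. Between E40 and E50 its log2 fold change came to 1.35 (standard error 0.47, limma adjusted p = 0.047 after Benjamini-Hochberg) and 0.69 with median-ratio scaling (adjusted p = 0.0327, under the fold limit). Between E40 and E60 it was 0.98 over all 9 libraries (adjusted p = 0.302, limma) and 1.1 with median-ratio scaling (adjusted p = 0.028, limma), where it passed. With scaling of the 8 libraries without E60 library 1 it was 0.89 (adjusted p = 0.0222, limma), under the fold limit.

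Tenascin-C had its lowest values at the late bell stage. TNC had 21.8, 25.1 and 31.2 FPKM at E40, 39.9, 30.0 and 27.8 FPKM at E50, and 20.4, 8.91 and 12.2 FPKM at E60. All E60 libraries lay below every E40 and E50 library, in both sets. The scaled values of TNC were 27.5 to 30.2 at E40, 19.1 to 27.3 at E50 and 14.4 to 17.4 at E60, again with no overlap between stages. For E40 to E60 the log2 fold change was -0.97 over all 9 libraries (standard error 0.38, limma adjusted p = 0.242 after Benjamini-Hochberg) and -1.29 with E60 library 1 left out (adjusted p = 0.0336, same test), where TNC fell. With median-ratio scaling it was -0.86 (adjusted p = 0.0459, limma), just under the fold limit. From E40 to E50 the sign depended on the scaling, at 0.32 and -0.34 (adjusted p = 0.496 and 0.178, limma).

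Tenascin-N, known from developing bone and periosteum, was near the limit of detection at the cap stage. TNN had 2, 0 and 4 reads in the E40 libraries, or 1.37, 0.0 and 1.95 FPKM. It had 8.09, 7.69 and 7.72 FPKM at E50 and 11.8, 5.14 and 6.59 FPKM at E60, from 184, 199 and 172 reads and from 296, 11 and 18 reads. No E50 or E60 library was as low as any E40 library. Between E40 and E50 the log2 fold change came to 3.56 (standard error 1.01, limma adjusted p = 0.0255 after Benjamini-Hochberg) and depends on the pseudocount, since one E40 library was at 0 reads. It was 2.21 with a pseudocount of 1, 4.71 with 0.01, where the call was lost, and 2.19 without E40 library 2. Leaving out E40 library 1 or any 1 of the E50 libraries also ended the call. By pooled reads, the share at E50 was 6.71 times that at E40 (95% exact interval 3.06 to 18.4) and the share in E60 libraries 2 and 3 was 5.1 times that at E40 (interval 2.08 to 15). In E60 library 1 it was 1.51 times that at E50 (interval 1.31 to 1.74). These intervals cover counting error only. Between E40 and E60 TNN was at 3.48 on the log2 scale, which missed the limit (adjusted p = 0.144, limma).

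Periostin had the widest range, as a ratio, over the E60 libraries among the 9 members. POSTN had 86.9, 111.6 and 108.9 FPKM at E40, 222, 319.5 and 293.9 FPKM at E50, and 444.9, 77.2 and 115.9 FPKM at E60. E60 library 1 was above every E50 library, whereas E60 libraries 2 and 3 were close to E40. All 4 deep libraries were above all 5 shallow ones, as they were for FN1, FBN1 and FBN2. The log2 fold change between E40 and E50 came to 1.43 (standard error 0.59, limma adjusted p = 0.0781 after Benjamini-Hochberg) over all 9 libraries, which missed the limit, and passed over the 8 (adjusted p = 0.00181, same test), as it did without E60 library 2 or with the 6 libraries of E40 and E50 alone. With scaling it was 0.77 (adjusted p = 0.109, limma). From E40 to E60 it was 0.64 over all 9 libraries and -0.11 over the 8 (adjusted p = 0.582 and 0.84, limma), and from E50 to E60 it was -0.8 and -1.54 (adjusted p = 0.315 and 0.00238, limma). With median-ratio scaling the E50 to E60 value was -0.02 over all 9.

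SPARC was the most abundant member in every library. It had 310.0, 328.8 and 476.8 FPKM at E40, 463, 385 and 474 FPKM at E50, and 935.7, 398 and 881 FPKM at E60. On the deposited scale E60 library 2 overlapped with both earlier stages. On the scaled values SPARC had 371 to 461 at E40, 283 to 327 at E50 and 714.8 to 1036 at E60, and all 3 E60 libraries were above every other library. The log2 fold change from E50 to E60 was 0.65 on the deposited scale (standard error 0.44, limma adjusted p = 0.28 after Benjamini-Hochberg). With median-ratio scaling it was 1.43 over all 9 libraries and 1.51 over the 8 (adjusted p = 0.0394 and 0.000649, limma). A term for the set ended this call, at 1.21 (adjusted p = 0.22, limma with scaling). E60 library 1 alone differed from the mean of E50, its own set, by 1.09 on the deposited log2 scale and 1.21 on the scaled one. Between E40 and E60 the scaled log2 fold change was 1.03 (adjusted p = 0.0385, limma) and within the shallow set 1.13 (adjusted p = 0.0224, limma over the 8 libraries). SPARC rose from E40 to E60 on the scaled values with that term as well (1.14, adjusted p = 0.0184, limma), and from E50 to E60 without it. Its rank among the 19618 genes, which no scaling changes, was 203, 187 and 134 at E40, 140, 161 and 147 at E50, and 69, 116 and 63 at E60.

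Genes were compared with each other as FPKM, which is per length of the gene model. At E40 the order by mean was SPARC (371.9 ± 91.3 FPKM, SD, n = 3), POSTN (102.5 ± 13.6), FN1 (41.8 ± 8.65), FBLN1 (37.3 ± 3.49), TNC (26.0 ± 4.79), FBN2 (22.2 ± 4.9), FBN1 (18.2 ± 4.25), ELN (13.8 ± 4.42) and TNN (1.11 ± 1). The ranges of FN1 and FBLN1 overlapped, as did those of TNC, FBN2, FBN1 and ELN, each with its next neighbour, although each gene was above the next in all 3 libraries. At E50 FBN2 came next after SPARC and POSTN (161.7 ± 22 FPKM, SD, n = 3), above FN1 (105.8 ± 10.6) and FBLN1 (97.5 ± 9.31), which overlapped. FBN1 (40.3 ± 4.77) and TNC (32.6 ± 6.42) overlapped too at E50, and ELN (12.9 ± 2.09) and TNN (7.83 ± 0.225) came last. At E60 the same order held down to TNC (13.8 ± 5.92 FPKM, SD, n = 3), with TNN (7.85 ± 3.52) above ELN (5.47 ± 1.08), and the ranges of all neighbours overlapped. Within each E60 library TNN was above ELN, from 296 against 146 reads in library 1. In libraries 2 and 3 this rests on 11 against 9 and 18 against 17 reads, which is within counting error. The lengths that the reads and FPKM values imply were 529 bases for SPARC, 1538 for ELN, 1551 for TNN, 2886 for FBLN1, 3323 for POSTN, 4554 for TNC, 7680 for FBN1, 8420 for FN1 and 8493 for FBN2. The level of SPARC relative to the others rests on this short gene model.

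Ratios between members within a library do not depend on the scaling between libraries. The ratio of FBN2 to FBN1 was 1.22, 1.24 and 1.2 at E40, 4.05, 4.06 and 3.91 at E50, and 5.61, 3.02 and 3.32 at E60. The fibrillins were thus near parity at the cap stage, and FBN2 was in excess in all 6 bell stage libraries, also in E60 libraries 2 and 3, which share the depth of E40. The mean log2 ratio differed by 1.71 from E40 to E50 and by 1.65 from E40 to E60, each with an exact two-sided permutation p = 0.1, the smallest that 3 against 3 libraries allow. Within the shallow set the latter difference was 1.37.

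The ratio of TNN to TNC was 0.0631, 0.0 and 0.0625 at E40, 0.203, 0.256 and 0.278 at E50, and 0.58, 0.577 and 0.539 at E60. It was separate between all stages. The values of E60 libraries 2 and 3 rest on 11 and 18 reads of TNN, so that their closeness to library 1 is within counting error and shows no more than that. The mean log2 ratio (FPKM + 0.1) differed by 3.24 from E40 to E50, where it rests on the few reads of TNN, and by 1.21 from E50 to E60 (exact two-sided permutation test, p = 0.1 for both). E60 library 1 alone gave 1.24 against E50.

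The ratio of ELN to FBN1 was 0.63, 0.844 and 0.778 at E40, 0.354, 0.232 and 0.397 at E50, and 0.119, 0.227 and 0.265 at E60. It was below the E40 values in every bell stage library, and the E50 and E60 values overlapped. The mean log2 ratio differed by -1.22 from E40 to E50, by -0.72 from E50 to E60 and by -1.93 from E40 to E60 (exact two-sided permutation test, p = 0.1, 0.2 and 0.1). Adjusted over the 9 ratio comparisons made, the lowest p was 0.129, so that no ratio can pass a limit of 0.05 in this design.

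**Figure D4:**
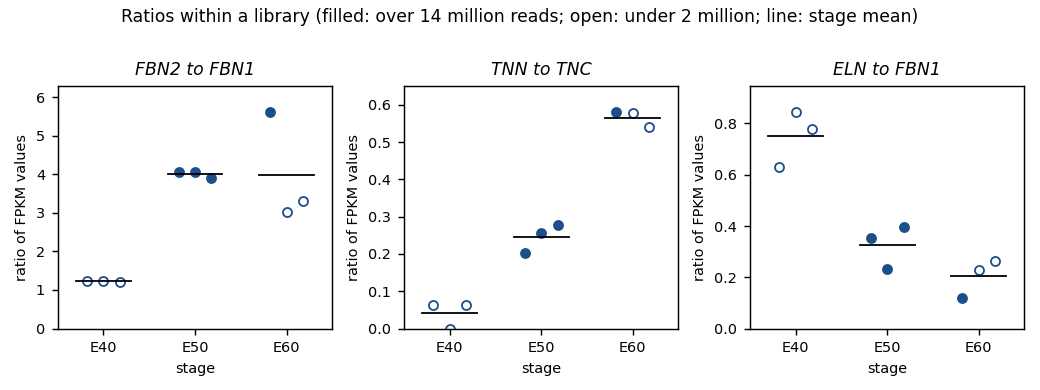
Ratios of FPKM within each library (vertical axes, each from 0) for FBN2 to FBN1, TNN to TNC and ELN to FBN1, with 3 libraries per stage, filled for the deep set and open for the shallow one, and lines at stage means. The 3 E60 libraries lie between 0.539 and 0.58 for TNN to TNC, above all E50 libraries.

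The members' shares of their summed FPKM described the same mixture. SPARC made up between 55.4% and 61.2% of the sum of the 9 members in the E40 libraries, between 32.5% and 40.0% at E50, and 45.5%, 60.9% and 68.5% in E60 libraries 1, 2 and 3. FBN2 made up between 3.28% and 3.68% at E40, between 11.8% and 15.5% at E50, and 13.5%, 8.63% and 6.11% at E60. POSTN took at most 18.8% at E40, 19.1%, 27.0% and 24.8% at E50, and 21.6%, 11.8% and 9.01% at E60.

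Of the other matricellular genes, 18 were listed and 15 tested. From E40 to E50 none rose and 2 fell over all 9 libraries, while 21.8% of all genes fell. These were TNR, a tenascin of the nervous system, at -3.84, and WISP3, a CCN family member, at -2.64 (adjusted p = 0.0132 and 0.00985, limma, Benjamini-Hochberg). TNR, with 3.76, 2.15 and 3.1 FPKM at E40 and at most 0.193 FPKM at E50, passed the filter on low values mainly through E40, so that its call is no support for a fall of the list. WISP3 had 21.9, 15.5 and 20.1 FPKM at E40, 3.38, 2.75 and 2.78 FPKM at E50 and 5.17, 10.1 and 9.27 FPKM at E60. None of the 15 passed from E50 to E60 or from E40 to E60 over all 9 libraries. Over the 8 libraries without E60 library 1, 2 rose (TNR and WISP3) and 5 of 15 fell from E50 to E60, against 39.1% of all genes that fell, THBS1 and SMOC1 the furthest at -2.45 and -2.04 (adjusted p = 0.000273 and 0.01, limma). This fit sets deep E50 libraries against shallow E60 libraries. With median-ratio scaling of all 9 libraries THBS1, SMOC1, TNR and WISP3 were at -1.16, -0.9, 2.06 and 2.14, and none of them passed. Over the same 8, THBS4 and THBS1 fell from E40 to E60, where 4.68% of all genes did, by -2.16 and -2.12 (adjusted p = 0.0353 and 0.00901, limma). THBS1, thrombospondin-1, an activator of latent TGF-beta, had 18.2, 25.2 and 29.6 FPKM at E40, 30.8, 31.3 and 27.6 FPKM at E50, and 16.2, 4.12 and 7.05 FPKM at E60, below both earlier stages in every E60 library. With median-ratio scaling its log2 fold change from E40 to E60 was -1.49 (adjusted p = 0.0107, limma over 9 libraries), and THBS1 was then the 1 gene of the 15 that passed, against 1.62% of all genes downwards. THBS4 was at -1.64 there (adjusted p = 0.147, limma). THBS4 and SMOC1 had 2 and 3 reads in their lowest libraries, at or under the floor of 3 reads.

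Of the 20 elastic fiber assembly genes listed, 19 were tested, and 6 rose and 2 fell from E40 to E50 over all 9 libraries, against 16.8% and 21.8% of all genes. With median-ratio scaling 2 rose and 3 fell, while 24.9% of all genes fell. MFAP5, a microfibril-associated glycoprotein, rose by 3.03 and FBLN7 by 2.41 (adjusted p = 0.0137 and 0.0423, limma, Benjamini-Hochberg). FBLN7 passed the filter on low values only through E50, with at most 1.63 FPKM there and at most 0.463 FPKM at E40, and its call was lost with median-ratio scaling (1.86, adjusted p = 0.089, limma). LOXL4, a lysyl oxidase-like enzyme, and LTBP4, a latent TGF-beta binding protein, fell by -1.81 and -1.19 (adjusted p = 0.018 and 0.0306, limma). MFAP5 was the 1 gene of this list that passed from E40 to E60 over all 9 libraries, at 3.8 (adjusted p = 0.0275, limma), where 0.663% of all genes rose, with 1.85, 1.65 and 10.5 FPKM at E40, 23.4, 26.6 and 30.9 FPKM at E50 and 67.4, 26.4 and 54.2 FPKM at E60. MFAP5 had 1 read in its lowest library, under the floor of 3 reads, so that the size of its changes is uncertain. None passed from E50 to E60 over all 9 libraries. Over the 8 libraries without E60 library 1, 2 rose and 7 of 19 fell, against 39.1% of all genes that fell, with LOXL4 and LOX at 1.64 and 1.51 and FBN3 and MFAP3 at -4.76 and -2.22 (adjusted p = 0.00807, 0.00621, 0.00709 and 0.00124, limma). Stage and set cannot be told apart in this fit. FBN3 and MFAP3 passed with scaling of these 8 libraries as well. With median-ratio scaling of all 9 they were at -3.14 and -0.66, and neither passed, while LOXL4 did at 2.52. A term for the set put MFAP3 at 0.15. E60 library 1, with 21.6 FPKM of MFAP3, lay within the E50 range of 16.2 to 21.8 FPKM. LOX, the enzyme that crosslinks elastin and collagen, had 8.76, 18 and 17.2 FPKM at E40, 15, 14.1 and 14.5 FPKM at E50 and 110.9, 33.4 and 51.4 FPKM at E60. Each E60 library was above all libraries of the earlier stages, and with median-ratio scaling LOX rose by 2.75 from E50 to E60 over all 9 libraries (adjusted p = 0.00424, limma). On the deposited values LOX thus had its highest values where ELN had its lowest. The scaled values of ELN overlapped between E50 and E60 (7.74 to 9.79 and 4.5 to 8.27). FBN3, another fibrillin, had 19.2, 9.96 and 15.4 FPKM at E50 and 5.97, 0.0 and 2.74 FPKM at E60. With 0 reads in its lowest library, its log2 fold change of -4.76 depends on the pseudocount.

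All 15 receptor genes listed were tested. From E40 to E50, 6 rose and 1 fell over all 9 libraries, against 16.8% and 21.8% of all genes, and the same numbers passed with median-ratio scaling, against 12.2% of all genes upwards. The integrin chains ITGA4 and ITGA8, which bind fibronectin, rose by 3.4 and 2.61 (adjusted p = 0.0124 for both, limma, Benjamini-Hochberg), and STAB1, a scavenger receptor that binds SPARC, fell by -2.47 (adjusted p = 0.0123, limma). From E50 to E60 none passed over all 9 libraries, and over the 8 libraries 1 rose (STAB1, 1.57) and 10 fell, against 39.1% of all genes that fell, with ITGB8 and ITGA9 at -3.32 and -2.43 (adjusted p = 0.00171, 0.000108 and 0.000328, limma). Here too stage and set cannot be told apart. Scaling of all 9 libraries put STAB1, ITGB8 and ITGA9 at 1.94, -1.55 and -1.09, and none of them passed. A term for the set put them at 0.43, -0.21 and -0.71 in that order. E60 library 1, with 7.84 FPKM of ITGB8, lay within the E50 range of 7.43 to 10.7 FPKM. With median-ratio scaling of the 8 libraries without E60 library 1, 2 rose, where 25.4% of all genes did. In that fit 2 fell, for which the share of all genes is not given. The genes that passed there were ITGA9, ITGB6, ITGB8 and STAB1. ITGA9, which binds tenascin-C, had 24.1, 25.4 and 22.5 FPKM at E50 and 14.6, 3.36 and 5.67 FPKM at E60. For E40 to E60 ITGA4 alone passed over all 9 libraries, at 3.24 (adjusted p = 0.0381, limma).

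Whole germs were sequenced, so that fewer cells of a type and less RNA per cell cannot be told apart. Epithelial and mesenchymal markers of the tooth germ were present at every stage: KRT5 was between 858 and 3660 FPKM and VIM between 559.6 and 2753 FPKM over the 9 libraries, while CDH1, ALPL, MYH11 and CKM were listed at 0 in all of them. The summed FPKM of 6 skeletal muscle genes was between 78.3 and 112.5 at E40, between 10.7 and 14.5 at E50, and between 6.64 and 14.1 at E60, and 4 of the 5 tested fell from E40 to E50 by limma. Muscle RNA was thus higher in the E40 libraries, in which scaled ELN was also highest, and its part in the values of the members was not tested. The vessel wall genes (6 listed, MYH11 at 0) had scaled sums of 118.9 to 148.4 at E40, 149.5 to 173 at E50, and 166.6, 111.5 and 169 in E60 libraries 1, 2 and 3. Among the bone genes (5 listed, ALPL at 0), the scaled sum was 44.7 to 82.8 at E40, 11.0 to 12.3 at E50, and 100.3, 102 and 74.2 at E60. The odontoblast marker DSPP had 393, 174.5 and 193.9 FPKM in the E60 libraries and at most 2.62 FPKM before. The members of the bone list went different ways: RUNX2 had 38.0, 31.9 and 27.9 FPKM at E40, at most 5.67 FPKM at E50 and 3.55, 20.3 and 11.7 FPKM at E60, whereas PHEX was at most 0.724 FPKM before E60 and had 101.8, 22.7 and 38.8 FPKM there. PHEX and DSPP were high in the E60 libraries, where scaled SPARC was highest. Their part in the rise of SPARC was not tested. The 6 cartilage genes summed to between 15.1 and 39.3 FPKM over all libraries, the 5 nerve genes to at most 6.21 FPKM, and the 6 blood and immune genes, mostly HBB, to between 94.7 and 1028 FPKM. Dental epithelium markers (11 listed) summed to between 2430 and 4917 FPKM at E40 and E50 and to between 4747 and 21580 FPKM at E60. AMBN, AMEL and ENAM, which encode enamel matrix proteins, carried this rise, with 10410, 6991 and 890.5 FPKM in E60 library 1, whereas SOX2 had 12.9 to 19.7 FPKM at E40 and at most 1.18 FPKM at E60. The dental mesenchyme markers summed to 2865, 880.7 and 1714 FPKM in E60 libraries 1, 2 and 3.

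Likeness of pattern was measured as the root mean square difference between log2(FPKM + 0.1) profiles over the 9 libraries, each centred on its mean, among 7552 genes with a mean of at least 5 FPKM and a symbol not starting with LOC. It is a description only, since all genes share the libraries and their depths. FBN2 was most like VCAN, CYBRD1 and DLX3 (differences of 0.181, 0.212 and 0.235, against a median of 1.11 over all candidates). SPARC was most like WNT4, FMN1 and KIFC3 (0.164, 0.184 and 0.217). The genes nearest to ELN were C2H11orf95, IDH2 and ST14 (0.169, 0.179 and 0.192), and those nearest to TNC were GPT2, MAST2 and TNKS1BP1 (0.127, 0.131 and 0.154). For FBLN1 they were YIF1A, SMIM20 and MID2 (0.137, 0.143 and 0.145), and for FN1 ENTPD4, EAF1 and TMEM2 (0.098, 0.116 and 0.123). FBN1 had RAPGEF2, PCYT1A and TTC17 nearest (0.084, 0.108 and 0.115), and POSTN had RHOT1, PSME4 and LDHA (0.097, 0.101 and 0.123). TNN, with few reads at E40, had no gene nearer than RARS2 at 0.615, followed by NDUFAF5 and SGCD at 0.807 and 0.834. Among the members themselves, the nearest pairs were FN1 and FBN1 at 0.189, FN1 and FBLN1 at 0.219, POSTN and FN1 at 0.317, FBN1 and FBLN1 at 0.322 and TNC and ELN at 0.333, and the farthest was TNN and ELN at 2.368.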

How the data were processed

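Total RNA of Dm3 germs from 9 libraries was analysed. The authors depleted rRNA, made directional libraries, aligned paired-end reads with TopHat (Sscrofa10.2 in the submitters' processing notes) and deposited FPKM values per gene. The annotation and counter are not given in the sources used here.

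Whole reads were recovered for all 28963 genes above 0, within 0.02 reads. Library totals matched the FPKM divisors within 0.067%. The recovery and the fit were tested on simulated data. Precision was limited by 938527 to 16674750 reads per library, and 3 reads were taken as the floor.

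Genes that reached 1 FPKM in 2 or more libraries entered limma 3.58.1 in R 4.3.3 on log2(FPKM + 0.1), a scale that understates changes of low genes, with a mean-variance trend, 1 coefficient for each stage and p-values adjusted by Benjamini-Hochberg. Ratios were tested by exact permutation under Python 3.11.15, and scipy 1.17.1 gave the adjustment of these p-values and the exact intervals of read shares. Alternatives were other pseudocounts, filters and scalings, limma-voom on recovered reads, terms for library set or replicate number, and leaving out each library. All members were named. Of each further list, up to 2 genes per direction with the largest change among those called over all 9 libraries were named, or over the 8 without E60 library 1 where none was. Members and lists were chosen with earlier results of these data known. Genome positions and sequences were not used here.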

Additional observations from a re-analysis of the deposited data

How the results depend on the processing

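Over the 9 libraries 5, 0 and 0 members passed from E40 to E50, E50 to E60 and E40 to E60. From E40 to E50 the number was 3 with limma-voom, 2 without the filter on low values, 2 with median-ratio scaling (9 or 8 libraries), 2 with library totals that leave out LOC102158401, TEX14, RN5-8S and RN18S (chosen after seeing the data), and 0 with the set of libraries as a term, scaled or not. From E50 to E60 it was 1 with median-ratio scaling of 9 or 8 libraries. From E40 to E60 it was 1 with a pseudocount of 1, 4 and 3 with median-ratio scaling of 9 and 8 libraries, 2 with the set as a term, 3 with both, and 1 without the 4 loci. Scaling together with the set term or with 8 libraries was also chosen after seeing the data. Leaving out 1 library gave 0 to 6, 0 to 4 and 0 to 3 members. E40 library 1, E50 library 2 or E50 library 3 each took the first to 0, E50 library 1 to 1, and E40 library 2, E40 library 3 or E60 library 3 to 2. Without E60 library 1 the numbers were 6, 4 and 2, and without E60 library 2 they were 6, 0 and 3. The cause was not tested. Where no share of all genes is given for a fit, its count describes the members alone.

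The replicate number as a block left 2 members past the limits from E40 to E50 (FBN2 and TNN) and 0 in the others. Deviations from the stage means correlated at r between -0.515 and 0.109 for same-numbered libraries and between -0.378 and 0.423 for differently numbered ones. With E60 split between the sets, this cannot show whether the numbers pair samples.

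Directions turned as follows. With median-ratio scaling of 9 libraries, of 8, with scaling and the set term, with the set term, and without the 4 loci, E40 to E50 became -0.34, -0.32, -0.32, -0.64 and -0.15 for TNC and -0.4, -0.38, -0.07, -0.39 and -0.2 for SPARC. E50 to E60 became, in that order, 0.68, 0.64, 0.7, 0.59 and 0.4 for TNN (0.05 with limma-voom), 0.41, 0.18, 0.81, 0.69 and 0.12 for FN1, and 0.5, 0.4, 0.65, 0.53 and 0.22 for FBLN1. In the first 4 of these it became 0.26, 0.15, 0.42 and 0.3 for FBN1, and with scaling of 9 libraries, scaling and the set term, and the set term alone 0.2, 0.91 and 0.79 for FBN2. With the set term, which links E40 and E50 only through the E60 libraries, E40 to E50 became -0.8 for POSTN (-0.47 scaled), -0.24 for FN1 and -0.07 for FBN1. With that term E50 to E60 became 0.69 for POSTN (0.81 scaled), and E40 to E60 -0.11 for POSTN. With both, E40 to E50 became 0.07 for ELN. Leaving out 1 library gave -0.34 to 0.15 for ELN from E40 to E50, -0.42 to 0.17 for TNN, -0.9 to 0.05 for FN1 and -0.68 to 0.23 for FBLN1 from E50 to E60, and -0.11 to 1.16 for POSTN from E40 to E60, with the extremes of the last 4 set by E60 libraries 1 and 2. The ratio of FBN2 to FBN1 from E50 to E60 turned from -0.06 to 0.49 within the deep set and ranged from -0.34 to 0.11 without 1 library. The other ratios kept their direction: without 1 library they were 1.7 to 1.73 and 1.37 to 1.82 for FBN2 to FBN1, 1.89 to 3.93, 1.08 to 1.3 and 3.1 to 5.14 for TNN to TNC, and -1.37 to -0.99, -0.94 to -0.37 and -2.16 to -1.58 for ELN to FBN1. TNN to TNC from E40 to E60 was 3.06 with a pseudocount of 1, and ELN to FBN1 from E50 to E60 was -1.41 within the deep set. No value within a set exists for ratios from E40 to E50.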
